A study of Drosophila melanogaster with 6 samples.

Results

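The cuticle protein families comprise the probe sets whose array annotation names 1 gene with a current symbol of the Cpr, Twdl (Tweedle), Lcp, Ccp84 or Edg series. By this rule 105 of 18769 probe sets were members, and they measured 103 genes. The Cpr family had 67 probe sets for 66 genes, the Tweedle family 24 for 24, the Lcp family 8 for 7, and the Ccp84 and Edg families 3 each. Current annotation holds 123 gene symbols of these series, of which 20 had no probe set of their own and were not analysed alone here; 7 of the 20 shared a probe set with another gene. Cpr47Ef and Lcp65Aa were the genes with more than 1 member probe set. Many of these genes lie in runs of similar copies, so a probe set may also have caught RNA of a close neighbour, which was not tested.

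The insect cuticle is made of chitin fibres set in a matrix of structural proteins that epidermal cells secrete outward. Most Cpr, Lcp and Ccp84 proteins carry the Rebers and Riddiford domain, which binds chitin, whereas Tweedle proteins form a separate family first known from mutants with an altered body shape. The Lcp genes were named for larval cuticle, the Ccp84 genes for a cluster at cytological position 84A, and the Edg genes as ecdysone-dependent genes of imaginal discs. Such genes are switched on in bursts at each moult, and in newly emerged adults the epidermis still adds layers of cuticle inside the shell.

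RNA of whole adult Drosophila melanogaster was hybridised to GeneChip Drosophila Genome 2.0 arrays, 3 for the strain Canton-S and 3 for the strain D18. Both are wild-type laboratory strains, Canton-S of North American and D18 of Russian origin, and both were kept at 25 °C on the same medium. The labels give an age of 3 days, and the methods give pools of flies of both sexes aged 2 to 3 days. No sample label gives the sex. Values are log2 signals of the robust multi-array average (RMA), so that 1 unit is a 2-fold difference. They rank a probe set across arrays, and the signals of different probe sets are not compared as amounts of RNA. In whole flies, fewer cells of a type and less RNA per cell cannot be told apart.

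The arrays were not alike within a strain. On Canton-S replicate 3 and D18 replicate 2, all 9 measured accessory gland markers of 10 listed names were above the other 4 arrays. Acp70A and SP, both listed, name the same gene. All 11 measured testis markers of 14 listed were also above. All 12 measured yolk and eggshell genes of 13 and all 4 measured ovary genes of 5 were below the other 4 arrays. The median accessory gland marker reached 11.86 on the Canton-S array of this pair and 11.43 on the D18 array, against 1.92 to 2.14 on the others, and the median yolk and eggshell gene was at 4.36 and 3.87, against 11.92 to 13.10. The methods describe pools of both sexes and do not mention this contrast, and the share of each sex on each array was not tested. Over all probe sets the array medians lay between 4.92 and 5.58 and were highest on these 2 arrays. The p-values below set the strain difference against the spread of arrays within a strain, which takes in the contrast of such arrays. With 3 arrays against 3 an exact permutation test of a single gene cannot give a two-sided p under 0.1.

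**Figure D1:**
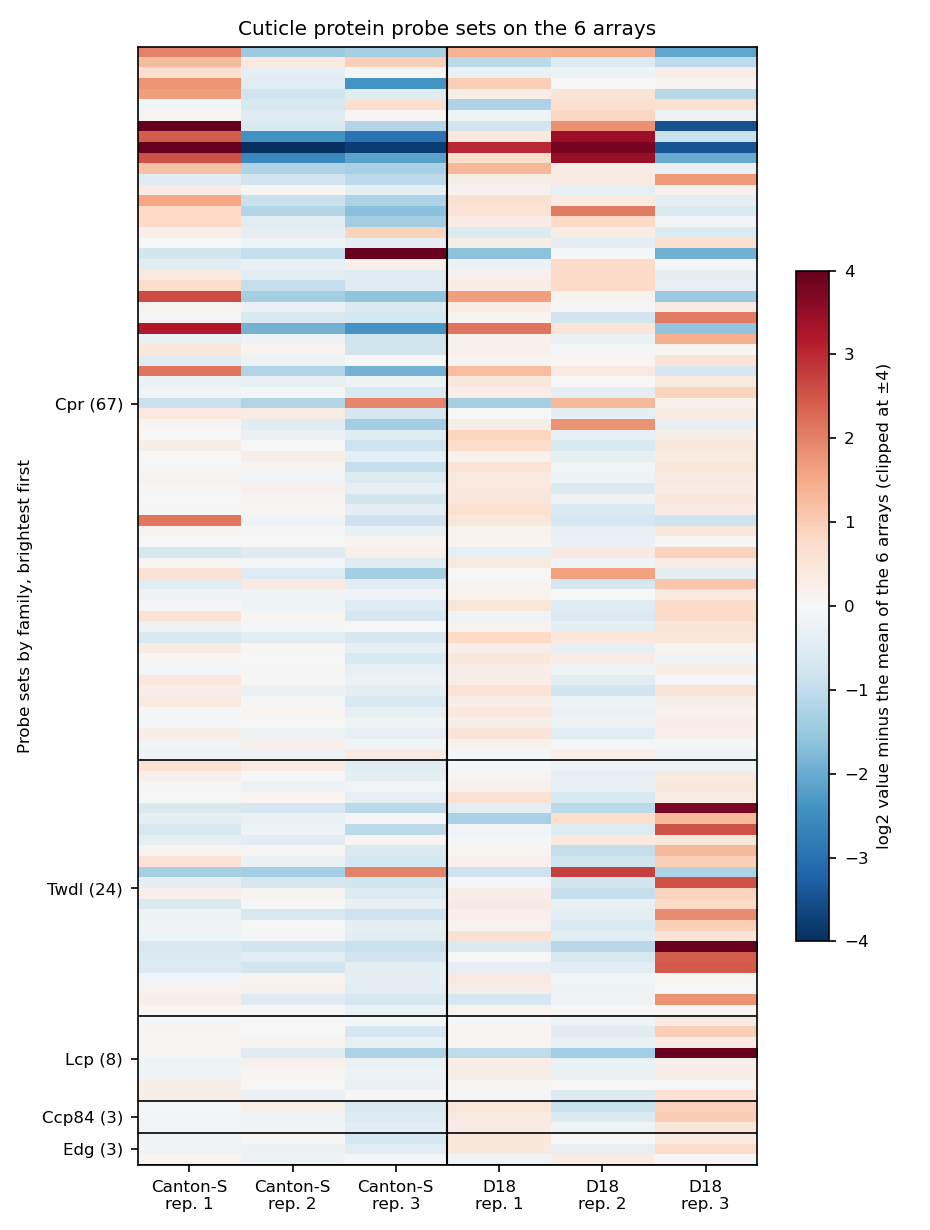
Log2 value of each of the 105 member probe sets on each array minus its mean over the 6 arrays, by family and from the highest mean downwards, with Canton-S left and D18 right (colours stop at ±4). A block of Cpr probe sets is high on Canton-S replicate 1 with D18 replicates 1 and 2, and a block of Tweedle probe sets is high on D18 replicate 3.

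Most members gave a low signal. The mean over the 6 arrays ran from 1.63 to 10.13 with a median of 4.10, where the median over all probe sets was 5.31. When all probe sets were split into 4 signal classes at the quartiles of this mean, 3.27, 5.31 and 7.63, the members fell 27, 55, 19 and 4 from the lowest class to the highest. The 4 in the highest class were Cpr49Ae, Cpr65Au, Cpr67B and Cpr49Ab. Of the Tweedle probe sets 7 lay in the lowest class, 15 in the second and 2 in the third, and no Ccp84 or Edg probe set lay above the second. How far members varied between arrays depended on their signal. The highest and the lowest array differed over 4-fold in 35 of the 105 (33.3%, against 26.3% of all probe sets) and over 16-fold in 14 (13.3%, against 9.74%). The largest step between neighbouring values, called the widest gap below, was over 2-fold in 30 members (28.6%, against 25.7%). Without D18 replicate 3 the number over 4-fold was 21 (20.0%, against 25.3%), below the share of all probe sets. In the lowest signal class, with 27 members, 14.8% of members and 2.94% of all probe sets ranged over 4-fold. In the second, with 55, it was 30.9% and 39.3%. It was 57.9% and 41.6% in the third, with 19, and 75% and 21.2% in the highest, with 4.

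Few members differed by strain beyond the spread between arrays. Canton-S was compared with D18 by limma over all probe sets, and a probe set passed the thresholds of the study at over 2-fold with an unadjusted p below 0.01. At these thresholds Cpr65Au was higher and Cpr23B lower in Canton-S, 2 of 105 members (1.90%), where 1.27% of all probe sets passed, 1.08% higher and 0.192% lower. At an adjusted p under 0.05, Benjamini-Hochberg in limma over all probe sets, 0 members were called, against 0.0373% of all probe sets; 3 members had an unadjusted p under 0.05 (2.86%, against 4.2% of all probe sets), and without moderation of the variance 5 had one (4.76%, against 4.69%) and 0 were called.

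Cpr65Au, a chitin-binding cuticle protein gene of the cluster at 65A, measured 10.76, 9.88 and 10.45 on the Canton-S arrays and 8.42, 8.95 and 8.45 on the D18 arrays. All Canton-S values lay above all D18 values. The difference was 3.39-fold, 1.76 ± 0.31 on the log2 scale (SE, n = 3 arrays each), past the thresholds of the study and with an adjusted p = 0.359 in limma. It was 1.51 between Canton-S replicate 3 and D18 replicate 2 and 1.89 between the strain means of the other 4 arrays. Cpr65Au was the 1 member, 0.95%, with all Canton-S arrays above all D18 arrays, a pattern found in 5.62% of all probe sets.

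Cpr23B, another gene of the Rebers and Riddiford type, measured 2.58, 2.80 and 2.53 in Canton-S and 3.99, 3.63 and 3.69 in D18. The strains did not overlap, but the mean of the probe set lay in the lowest signal class. Its log2 difference was -1.13 ± 0.20 (SE), or 2.19-fold lower in Canton-S (adjusted p = 0.379 in limma), with -1.10 between Canton-S replicate 3 and D18 replicate 2 and -1.15 in the other 4 arrays. With the replicate number as a block neither gene passed the thresholds in limma, and 0 members did, against 0.49% of all probe sets. Cpr23B also did not pass once each array had been set to the same median.

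Cpr64Ad measured 5.13, 4.84 and 4.55 in Canton-S and 5.85, 5.93 and 7.32 in D18. Again the strains did not overlap, and D18 replicate 3 stood alone at the top by 1.39. The log2 difference of -1.52 ± 0.46 (SE), 2.88-fold, did not pass the thresholds (adjusted p = 0.860 in limma). It passed with a term for the pair of arrays with high accessory gland signal, under which 3 members did (2.86%, against 2.38% of all probe sets). Including Cpr23B and Cpr64Ad, 5 members had all Canton-S arrays below all D18 arrays (4.76%, against 2.39% of all probe sets). The others were Cpr12A, Cpr31A and Cpr66Cb.

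**Figure D2:**
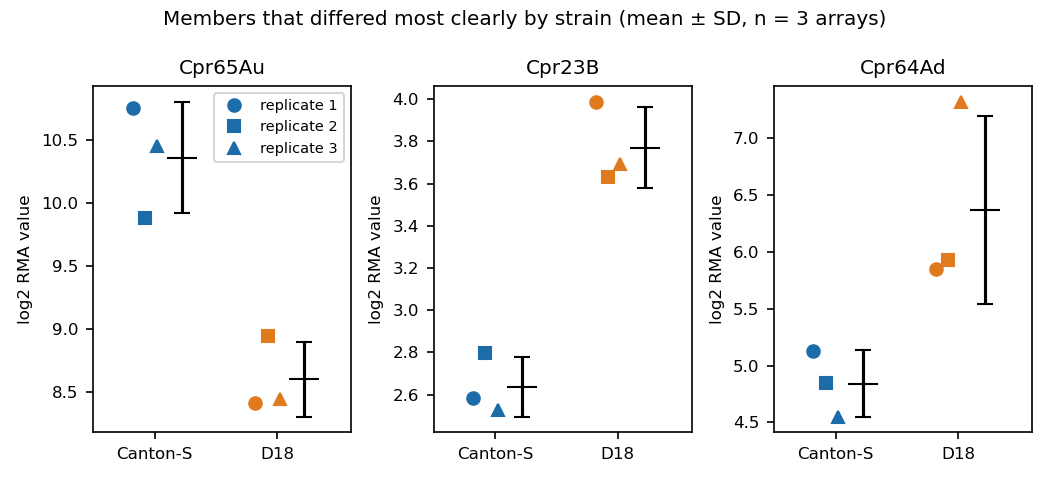
Log2 RMA value of Cpr65Au, Cpr23B and Cpr64Ad on each array, with Canton-S left of D18, marker shapes for replicates 1 to 3, and the mean with SD beside them (n = 3 arrays; the y axes differ and do not start at 0). Cpr65Au was higher and the others lower on every Canton-S array than on any D18 array.

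Small differences towards D18 were common. The mean was lower in Canton-S for 91 of the 105 members (86.7%), where 57.8% of all probe sets were lower, and the median log2 difference was -0.35 for members and -0.05 for all probe sets. The Tweedle family had a median of -0.46 with 23 of 24 lower, the Cpr family -0.33 with 55 of 67, the Lcp family -0.12 with 7 of 8, the Ccp84 family -0.44 with 3 of 3 and the Edg family -0.52 with 3 of 3. By signal, the medians were -0.18 for members and -0.10 for all probe sets in the lowest signal class, -0.43 and -0.09 in the second, -0.29 and -0.02 in the third, and -0.17 and 0.03 in the highest, which holds 4 members. In the 4 arrays other than Canton-S replicate 3 and D18 replicate 2 the medians of members turned above 0 in the upper classes. They were 0.06 in the third and 0.40 in the highest, against -0.02 and 0.005 for all probe sets. In the highest class the median of members was also above 0 without Canton-S replicate 2 (0.24), Canton-S replicate 3 (0.26), D18 replicate 1 (0.07) or D18 replicate 2 (0.10). Between Canton-S replicate 3 and D18 replicate 2 alone, 1 array against 1, the medians of members were far lower in the upper classes. They were -0.998 in the third and -1.12 in the highest, against 0.0095 and 0.09 for all probe sets. In the lowest and the second class they were -0.07 and -0.15, against -0.05 and -0.08.

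The size of this difference depended in part on single arrays. The median member measured 3.98, 3.85 and 3.45 on the Canton-S arrays and 4.29, 3.65 and 4.47 on the D18 arrays, so that Canton-S replicate 3 was the lowest and D18 replicate 3 the highest. Without D18 replicate 3 the median difference of the members was -0.15 and without Canton-S replicate 3 it was -0.17. The median over all probe sets moved the same way, from -0.05 to 0.007 and 0.08. For the Tweedle family the median difference was -0.08 without D18 replicate 3, and for the Lcp family it turned to 0.02. Between Canton-S replicate 3 and D18 replicate 2 alone the median was -0.15 for all members, -0.04 for Tweedle and -0.22 for Cpr probe sets, against -0.01 for all probe sets. In the other 4 arrays it was -0.28, -0.60 and -0.13, against -0.07 for all probe sets. With every array set to the same median it was -0.51 for members and -0.22 for all probe sets.

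**Figure D3:**
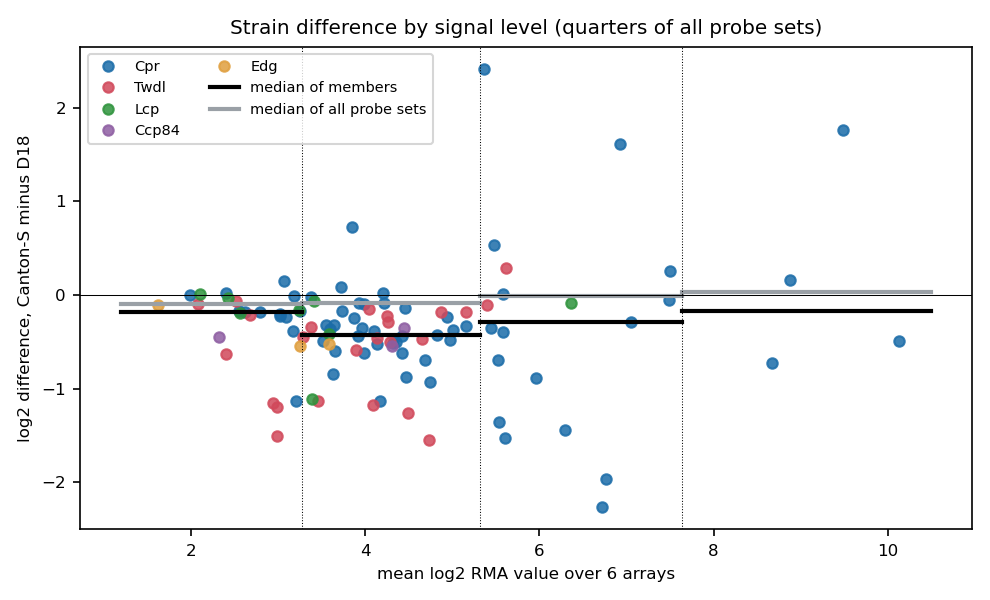
Log2 difference, Canton-S minus D18, of each member against its mean log2 RMA value over the 6 arrays, coloured by family, with dotted lines at the quartiles of all probe sets and bars for the median of members and of all probe sets in each class. Most points lie below 0, and the median of members over all 6 arrays is below that of all probe sets in each of the 4 classes, an order that turned in the third and the highest class in the 4 arrays other than Canton-S replicate 3 and D18 replicate 2.

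The widest differences in the Cpr family ran across the strains. In 17 Cpr probe sets all of Canton-S replicate 1, D18 replicate 1 and D18 replicate 2 lay above all of the other 3 arrays. These were 16.2% of the 105 members, and 2.26% of all probe sets had this order; no Tweedle, Lcp, Ccp84 or Edg probe set had it. It was looked for after the values were seen, and no label ties these 3 arrays together. By signal, 1 of the 27 members in the lowest signal class, 7 of 55, 8 of 19 and 1 of 4 had it. Of all probe sets in the same classes 1.92%, 2.15%, 2.05% and 2.92% had it.

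Cpr92F measured 11.13 on Canton-S replicate 1 and 9.72 and 10.55 on D18 replicates 1 and 2, against 2.71 and 2.91 on Canton-S replicates 2 and 3 and 3.28 on D18 replicate 3. The gap between the upper and the lower arrays was 6.45 on the log2 scale, or 87.2-fold, and each strain lay on both sides of it. Cpr97Eb measured 8.85, 7.01 and 9.76 on the same 3 arrays, against 3.72, 4.14 and 4.27. Cpr47Ea measured 7.88, 6.81 and 5.16, against 2.80, 2.32 and 3.12. In both genes the gap was over 2-fold and was the widest between any neighbouring values.

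Cpr49Ae, the member with the highest mean signal, measured 12.15, 11.53 and 11.56 on these arrays, against 8.68, 8.81 and 8.04 on the others. Its neighbours in the cluster at 49A had the same order in part. Cpr49Ac measured 7.55, 6.62 and 5.08, against 3.59, 3.34 and 3.48. Cpr49Ah measured 6.56, 5.65 and 4.81, against 3.23, 2.55 and 3.74. Cpr49Ag and, at a signal near 3, Cpr49Aa also followed this order, whereas Cpr49Ab, Cpr49Ad and Cpr49Af did not. Cpr49Ad stayed between 2.31 and 2.62 on all arrays. In the clusters at 76B and 78C, Cpr76Bd measured 6.34, 5.86 and 6.34 on the 3 arrays, against 5.07, 4.14 and 5.43, while Cpr78Ca measured 4.12, 4.98 and 3.84, against 3.88, 3.64 and 4.37.

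Counted by the widest gap, 5 members (Cpr47Ea, Cpr49Ae, Cpr49Ah, Cpr92F and Cpr97Eb) had these 3 arrays above a gap of more than 2-fold (4.76%, against 0.155% of all probe sets). They were 17.2% of the 29 probe sets with this split; after quantile normalization 3 members had it, and again 0.155% of all probe sets. The strain comparison did not separate these genes from the spread of the arrays: the log2 difference was -2.27 ± 3.07 for Cpr92F, -1.44 ± 1.95 for Cpr97Eb and -0.50 ± 1.40 for Cpr49Ae (SE), each with an adjusted p = 0.9999 in limma. Cpr72Ec, whose protein is a component of the corneal lens of the eye, measured 7.13, 7.30 and 6.25 on the 3 arrays, against 4.75, 4.67 and 5.66. Cpr66D, also a corneal lens protein, did not have this order and ran from 4.92 to 6.37.

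Some muscle and fat body markers had the same order of arrays. Of 6 measured muscle markers of 9 listed, 3 had all of Canton-S replicate 1 and D18 replicates 1 and 2 above the other 3 (Act88F, fln and TpnC4), and so had 3 of 4 fat body markers (Fbp1, Fbp2 and Lsp2). The rest did not: up, encoding troponin T, was lowest on D18 replicate 1, at 8.36, Tm2 and Mlc2 were below Canton-S replicate 3 on that array, and apolpp was lowest on Canton-S replicate 1, at 11.02. Summed on the linear scale, the muscle markers were at 23426, 10635 and 19759 on the 3 arrays, against 2282, 4723 and 2989. Such a sum gives most weight to probe sets of high signal such as Act88F, so it does not speak for up, Tm2 and Mlc2. Act88F, the actin of the indirect flight muscle, measured 12.90, 12.07 and 12.51, against 6.34, 8.78 and 7.82. The fat body sum did not separate the arrays, at 5723, 6518 and 4313 against 5317, 3948 and 5591, while Fbp1 measured 9.32, 8.60 and 6.89, against 3.87, 3.12 and 4.06. No marker of the epidermis apart from the members was listed, and the part of these tissues in the Cpr values was not tested.

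**Figure D4:**
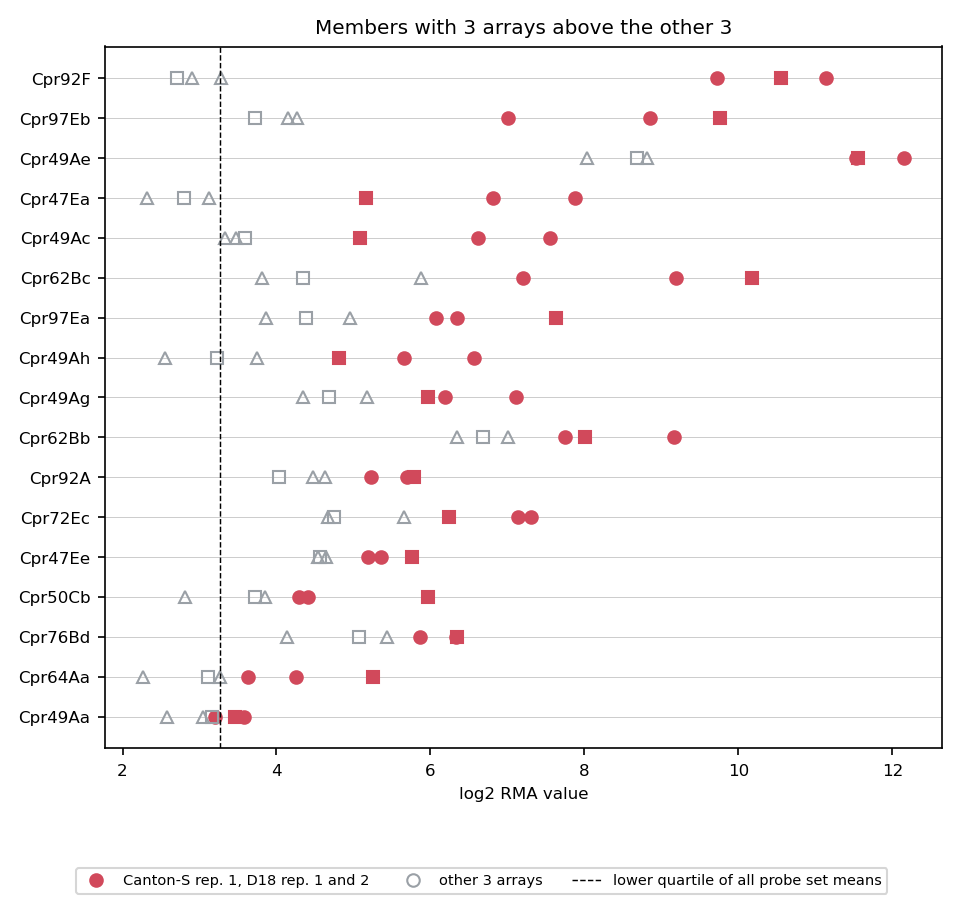
Log2 RMA values of the 17 Cpr probe sets in which Canton-S replicate 1 and D18 replicates 1 and 2 (filled) all lay above the other 3 arrays (open); circles, squares and triangles stand for replicates 1, 2 and 3, and the dashed line is the lower quartile of all probe set means. The gap was widest in Cpr92F, between 9.72 and 3.28, and narrow in Cpr49Aa at the foot.

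In some Cpr genes 1 or 2 arrays stood above a widest gap of more than 2-fold. Of those given here, Cpr62Bb and Cpr62Bc also belong to the 17 probe sets with the order of arrays above. Cpr67Fb measured 10.69 on Canton-S replicate 3, against 4.63 and 4.41 on the other Canton-S arrays and 3.73, 5.29 and 3.46 on the D18 arrays. The gap of 42.1-fold set 1 array apart, and the log2 strain difference was 2.42 ± 1.82 (SE, adjusted p = 0.9999 in limma). Cpr100A measured 11.10, 6.31 and 5.76 in Canton-S and 6.17, 8.75 and 3.43 in D18. Cpr62Bc measured 9.19, 4.35 and 3.81 in Canton-S and 7.20, 10.18 and 5.88 in D18. In both genes Canton-S replicate 1 and D18 replicate 2 stood above the widest gap, and the strains overlapped. Cpr11B was at 5.95 on Canton-S replicate 1 and between 3.03 and 4.29 elsewhere, and Cpr62Bb at 9.16 on that array and between 6.34 and 8.01 elsewhere. By contrast Cpr67B stayed between 8.52 and 9.51 on all arrays, Cpr47Ef between 6.53 and 7.87 in the probe set of higher signal, and Cpr51A between 6.26 and 8.16.

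In the Tweedle family a single D18 array stood apart. D18 replicate 3 was the highest of the 6 arrays in 44 of the 105 members (41.9%, against 16.1% of all probe sets), among them 17 of 24 Tweedle, 7 of 8 Lcp, 3 of 3 Ccp84, 16 of 67 Cpr and 1 of 3 Edg probe sets. In 13 members it was alone above a widest gap of more than 2-fold (12.4%, against 0.272% of all probe sets), and these made up 25.5% of the 51 probe sets with this split. They were 9 Tweedle, 3 Cpr and 1 Lcp probe sets, and 4 of them had a mean in the lowest signal class. This split too was found after the values were seen.

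TwdlB measured 6.94 on D18 replicate 3, against 2.35, 2.27 and 2.10 on the Canton-S arrays and 2.41 and 1.88 on the other D18 arrays. TwdlM measured 8.49, against 4.17, 4.06 and 3.65 in Canton-S and 4.39 and 3.65 in D18. The gaps were 23.0-fold and 17.2-fold, and the other 5 arrays lay within 1 unit of each other in both. TwdlD, the gene whose mutants gave the family its name, measured 7.04, against 3.45 to 4.38 on the other 5 arrays. TwdlN measured 6.63, against 3.36 to 4.06. TwdlL, TwdlF, TwdlW, TwdlE and TwdlY reached 5.41, 5.42, 5.34, 4.20 and 5.56 on this array. Of the Cpr family, Cpr65Ea measured 6.78 there, against 3.997 to 4.85, and Cpr47Eg 5.89, against 3.69 to 4.65. The log2 strain differences of TwdlB and TwdlM, -1.51 ± 1.37 and -1.55 ± 1.30 (SE), thus rested on 1 array and had an adjusted p = 0.9999 in limma.

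The high value on D18 replicate 3 took in some neighbouring genes and left out others. On the right arm of the third chromosome 11 Tweedle genes follow one another without another member between them, in the order TwdlM, P, B, L, O, K, N, H, R, S and D. D18 replicate 3 was alone above a gap of over 2-fold for M, B, L, N and D, of which B and L adjoin each other. In TwdlP it exceeded the next array by 0.06, in TwdlK by 0.29 and in TwdlH by 0.18. In TwdlO, TwdlR and TwdlS it was below the highest of the others. TwdlT, the Tweedle probe set of highest mean signal, measured 6.18, 5.96 and 5.16 in Canton-S and 5.58, 5.43 and 5.42 in D18, with overlap of the strains (log2 difference 0.29 ± 0.32, SE).

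**Figure D5:**
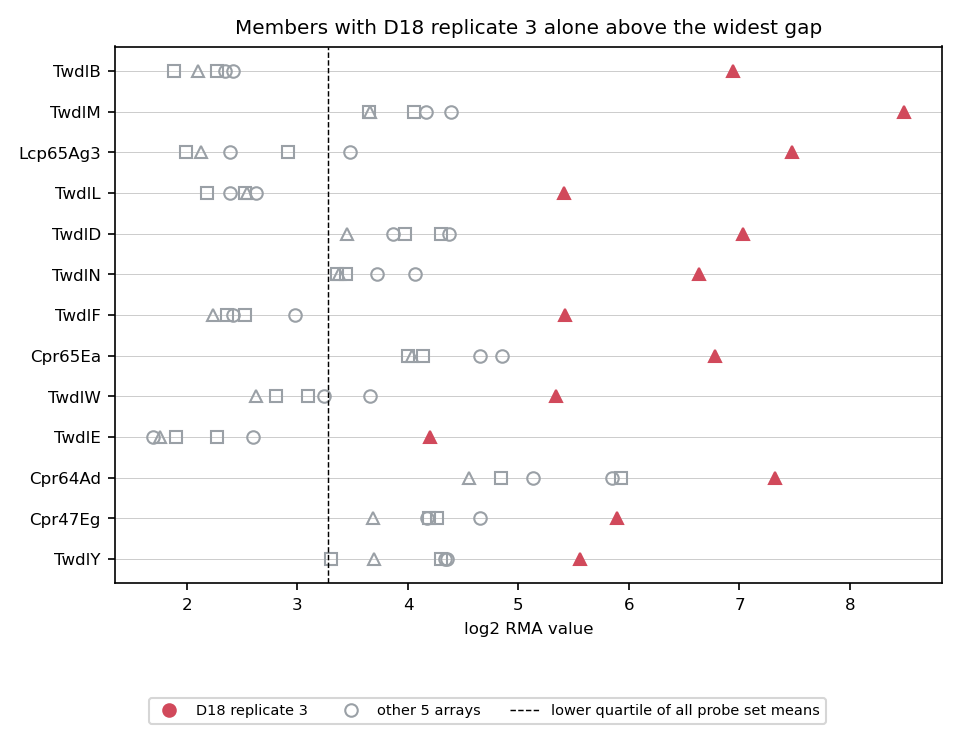
Log2 RMA values of the 13 members with D18 replicate 3 (filled triangle) alone above a widest gap of more than 2-fold; open circles, squares and triangles are replicates 1, 2 and 3 of the other 5 arrays, and the dashed line is the lower quartile of all probe set means. In TwdlB, TwdlM and Lcp65Ag3 the array stands more than 4 log2 units above the rest.

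The Lcp, Ccp84 and Edg genes were mostly low, with 1 array far above the rest in Lcp65Ag3. Lcp65Ag3 measured 7.48 on D18 replicate 3, against 3.47, 2.91 and 2.13 in Canton-S and 2.39 and 1.99 on the other D18 arrays, a gap of 16.1-fold. The probe set shared by Lcp65Ag1 and Lcp65Ag2, not a member, was also highest there, at 7.75 against 2.60 to 5.57, and so was that shared by Cpr65Ax1 and Cpr65Ax2, at 6.89 against 3.06 to 3.69. Cpr65Au, the gene of higher signal in Canton-S, is the next member to Lcp65Ag3 in this cluster and was at 8.45 on D18 replicate 3, within the range of the D18 arrays. Lcp65Aa ran from 6.17 to 6.72 in one probe set and from 3.13 to 3.73 in the other. Lcp65Ae, Lcp65Af, Lcp65Ad and Lcp9 stayed at or below 3.51 on every array. Ccp84Ac measured 4.38, 4.63 and 3.79 in Canton-S and 4.93, 3.57 and 5.36 in D18. Edg91 measured 3.45, 3.63 and 2.90 in Canton-S and 4.05, 3.56 and 3.94 in D18, and in both genes the strains overlapped.

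Few members set the 2 arrays with high accessory gland and testis signal, Canton-S replicate 3 and D18 replicate 2, more than 2-fold apart from the other 4. Both arrays lay above all of the other 4 in 7 members (6.67%, against 17.4% of all probe sets) and below all of them in 52 (49.5%, against 47.3%). With every array set to the same median, both were above in 3 (12.9% of all probe sets) and below in 70 (65.8%). More than 2-fold apart, they were above in 2 members (1.90%, against 10.3%) and below in 0 (against 9.22%). Those above were Cpr50Ca, Cpr51A, Cpr56F, Cpr66D, Cpr67Fb, Cpr73D and Twdlalpha. Among the 52 below were 27 of 67 Cpr, 14 of 24 Tweedle, 7 of 8 Lcp, 3 of 3 Ccp84 and 1 of 3 Edg probe sets. They took in 18 of the 27 members in the lowest signal class (66.7%, against 57.5% of all probe sets in that class). In the second class it was 30 of 55 (54.5%, against 34.5%), in the third 4 of 19 (21.1%, against 48.9%) and in the highest 0 of 4 (against 48.1%). The labels do not name such kinds of array, so these counts are descriptions. The margin below was under 1 log2 unit in each of the 52. It was widest in TwdlC, at 3.50 and 3.14 on these 2 arrays against 4.16 to 4.93 on the others, and among the widest in Cpr30B, at 3.28 and 3.50 against 4.13 to 4.84, and Cpr65Ec, at 2.70 and 2.80 against 3.24 to 4.14. TwdlY, Ccp84Ac and Twdlbeta also belonged to the 6 with the widest margin.

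Twdlalpha measured 6.10 on the Canton-S array and 6.88 on the D18 array of this pair, against 2.82, 2.78, 3.32 and 2.90 on Canton-S replicates 1 and 2 and D18 replicates 1 and 3. Cpr56F measured 6.18 and 5.50, against 3.32, 3.02, 2.89 and 4.40. Within each strain the 1 array with high male reproductive markers was thus the highest for both genes, and their log2 strain differences were -0.47 ± 1.43 and -0.09 ± 1.08 (SE). In Cpr66D the margin over the other 4 arrays was small, at 6.37 and 5.79 against 5.70, 5.16, 4.92 and 4.94. In Cpr67Fb only Canton-S replicate 3 was far above, as given before.

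Genes of the same biology outside the families were counted from listed names. Of 28 other structural genes of cuticle and chitin fibres, 23 were measured, with 8 higher and 15 lower in Canton-S and a median log2 difference of -0.12, which was 0.57 in the 4 arrays other than Canton-S replicate 3 and D18 replicate 2. One passed the thresholds, obst-A, which encodes a chitin-binding protein of the larval cuticle matrix. It measured 6.56, 6.16 and 3.95 in Canton-S and 1.45, 1.24 and 1.80 in D18, without overlap, a 16.7-fold difference with an adjusted p = 0.370 in limma. Acp65Aa, an adult cuticle protein gene, measured 11.06, 4.997 and 3.53 in Canton-S and 10.26, 9.71 and 4.66 in D18, the order of the 17 Cpr probe sets above. With it, 6 of the 23 genes had this order, against 2.26% of all probe sets, so the order was not particular to the Cpr family.

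For enzymes of sclerotization and pigmentation, which harden and colour the cuticle, 26 names were listed and 21 genes measured. AANAT1 and speck, both listed, name the same gene. Of the 21, 14 were higher and 7 lower in Canton-S, with a median of 0.27, or 0.63 in the same 4 arrays. The 1 past the thresholds was yellow-d, of the yellow family, at 9.47, 9.60 and 9.52 in Canton-S and 7.31, 7.59 and 7.65 in D18 (4.04-fold, adjusted p = 0.0665 in limma). Among 15 measured regulators of 20 listed, nuclear receptors, hormones and other genes that time the moults, 7 were higher and 8 lower in Canton-S, with a median of -0.08, or 0.08 in these 4 arrays, and 0 past the thresholds. The order of the 17 Cpr probe sets was found in 4 of the 21 enzymes and 0 of the 15 regulators, against 2.26% of all probe sets.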

How the data were processed

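Whole-fly RNA, 250 ng per array, was hybridised to 1-colour arrays. The authors processed the scans with RMA, and the deposited values are log2 signals per probe set, used as deposited; they ran from 0.98 to 14.07. The versions of the software were not used here, and no detection call was applied. Of 18952 probe sets 183 controls were left out; of the 18769 tested, 13647 name 1 gene, 402 several and 4720 none in the array annotation, whose symbols were updated through a Release 6 gene table used only for names and gene order. The probes were designed on Release 3.1, so no coordinates are given, and no sequences were used.

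The strains were compared with lmFit and eBayes (limma 3.58.1 under R 4.3.3), with no factor but strain, and adjusted p are Benjamini-Hochberg values over all 18769. The script was tested on simulated data. The number of arrays limits the precision. Counts of non-overlapping arrays, medians and widest gaps (the largest step among the 6 ordered values, if over 1 log2 unit) carry no test; they came from Python 3.11.15 (pandas 2.3.3, numpy 2.4.6), and plots from matplotlib 3.10.9. Members, lists and markers were chosen with earlier results of these data known.

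Genes named are members past the thresholds, the 12 of highest mean, the 6 with the largest and the 6 with the smallest difference, those with Canton-S replicate 3 and D18 replicate 2 apart, and the highest of each family and cluster; those of the 3-array and the 1-array splits, and others, were named after their values were seen. Of the other lists, those past the thresholds were named, and Acp65Aa was named for its order of arrays. The methods state that RNA of both strains was extracted together in each repeat, 1 week apart, but not that the replicate numbers mark the repeats. Deviations from the strain means correlated at 0.777, -0.93 and -0.861 for numbers 1, 2 and 3, so the numbers were not taken to pair arrays. Alternatives were a replicate block, quantile normalization, a common median, a filter on the lowest 40% of means, an intensity trend, no moderation, probe sets of plain type, a block for or removal of Canton-S replicate 3 and D18 replicate 2, and each array left out.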

Additional observations from a re-analysis of the deposited data

How the results depend on the processing

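Of the alternatives to the strain comparison, the replicate block left 0 members past the thresholds, and shifting the arrays to a common median or filtering out the lowest 40% of means left 1, Cpr65Au; each array left out in turn gave 2. The replicate block rests on numbers that were not shown to pair the arrays, and under it 92 of all probe sets passed, against 239 without it. That number was 121 with arrays at a common median, 157 without moderation, 447 with a term for the pair Canton-S replicate 3 and D18 replicate 2, 514 without that pair, and 130 to 297 with each array left out. No alternative brought a member under an adjusted p of 0.05 in limma; each array left out gave 0, and the lowest adjusted p of a member over the alternatives was 0.0576. The median log2 difference of members ran from -0.44 to -0.15 with each array left out and stayed below 0 under every alternative tried.

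Members with Canton-S replicate 3 and D18 replicate 2 above the other 4 arrays were 3 with arrays at a common median, where 12.9% of all probe sets were. Those with both below were 70 at a common median, against 65.8% of all probe sets. With the filter, which by construction removes members of low signal, 4 were above and 9 below. With 1 of the other arrays left out, 7 to 10 were above and 52 to 57 below. The share of all probe sets is not given for the filter or for arrays left out. Leaving out an array makes either order easier to meet for any probe set, so nothing is read from these counts. Of the results added after the values were seen, D18 replicate 3 stood alone above a gap of over 4-fold in 7 members (0.0799% of all probe sets), and the split with Canton-S replicate 1 and D18 replicates 1 and 2 above was found in 3 after quantile normalization (0.155% of all probe sets). The cause of these changes was not tested except where given. Signals in the lowest class, where 27 members lie, limit what can be read from small differences.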

Other observations

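Other probe sets shared the splits seen in the cuticle families, and they were named after their values were seen. With D18 replicate 3 alone above the widest gap, Vajk1 measured 5.53 on that array, against 3.37 to 4.25 on the other 5, and Osi20, of the Osiris family, measured 5.96, against 2.69 to 4.29. TotC, of the stress-induced Turandot family, measured 8.22, against 3.16 to 6.73. With Canton-S replicate 1 and D18 replicates 1 and 2 above the widest gap, Vajk2 measured 9.86, 8.42 and 10.33 on these arrays, against 4.18, 4.28 and 5.76 on the others. Vajk3 measured 9.41, 7.74 and 10.08, against 3.98, 3.58 and 5.55. The genes of the Vajk family thus stood in both splits. Retinin, a further corneal lens protein, measured 11.24, 9.91 and 10.56 on the same 3 arrays, against 7.56, 7.90 and 8.55, and flightin (fln), of the flight muscle, 12.38, 11.39 and 11.94, against 5.92, 8.18 and 9.13.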
